A study of Mus musculus with 12 samples.

Results

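The genes described here encode core steps of insulin and insulin-like growth factor (IGF) signalling through PI3K, AKT and mTOR. They are *Igf1r*, *Insr*, *Irs1*, *Irs2*, *Pik3ca*, *Pik3r1*, *Akt1*, *Akt2* and *Mtor*, 9 of the 50978 genes in the deposited expression table, and were taken by name and not by any measured value. Of the 9 genes, 8 passed the filter on low values and were tested, and *Irs1* did not pass. In embryonic stem cells carrying full-length PRAMEL7 the receptor genes *Igf1r* and *Insr* were lower than in parental cells, at 0.542 and 0.594 of their mean level, and *Akt1* and the adaptor gene *Irs2* were higher, at 1.82 and 1.80 times. *Igf1r* and *Akt1* also differed between these cells and those carrying a truncated PRAMEL7.

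RNA was sequenced from 3 lines of mouse embryonic stem cells (ESCs), with 2 libraries for each line from independent culture dishes. The study's methods describe triplicates, whereas the samples used here hold 2 RNA libraries per line. All lines were 129 mouse cells of the E14 line, grown with 15% serum and LIF and, per the study's methods, without feeder cells. Parental ESCs carried no insertion. The WT line (labelled ESCs+Pramel7WT) carried HA- and FLAG-tagged full-length PRAMEL7. This protein recruits the ubiquitin ligase scaffold CUL2. The ΔN line (labelled ESCs+Pramel7DNterm) carried the same tagged protein without its N-terminus, which the study describes as the part that binds CUL2. The labels give a deletion of 50 amino acids, whereas the study's text gives another length. Cas9 had been used to insert both sequences, driven by the CAG promoter, into *Rosa26*, and puromycin-resistant cells had been grown up from single cells. How many clones each line holds is not given in the sources used here, so effects of PRAMEL7 and differences between clones cannot be told apart. Comparisons of each line with parental ESCs share the same 2 parental libraries.

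Each library held between 18256081 and 19857199 reads assigned to genes. Levels are given as CPM, the reads of a gene scaled to a common library size. *Pramel7* itself had 0.238 CPM in parental ESCs, 48.7 in the WT line and 414.3 in the ΔN line, so the inserted gene was far from equal in level between the derived lines. All 10 ESC markers examined (among them *Pou5f1*, *Nanog* and *Esrrb*) were above the filter, and their summed level was 5783 to 6190 CPM in parental ESCs, 5543 to 5898 in the WT line and 6736 to 6792 in the ΔN line, whose libraries were highest. In the WT line 1 of these markers was higher than in parental ESCs (*Utf1*) and 4 were lower, and 5 were lower in the WT line than in the ΔN line. Markers of fibroblast feeders summed to 43.7 to 56.9 CPM in parental ESCs, 22.1 to 23.3 in the WT line and 38.9 to 43.8 in the ΔN line, mostly from *Thy1*, which was itself lower in the WT line, and *Dcn* and *Lum* had no read in any library. Of the 5 trophectoderm markers tested, 4 were higher and 1 (*Tfap2c*) lower in the ΔN line than in parental ESCs, with *Cdx2* and *Elf5* below the filter. Their summed level was 93.5 to 135.4 CPM in parental ESCs, 98.9 to 102.6 in the WT line and 92.0 to 96.7 in the ΔN line. Markers of primitive endoderm summed to 249.0 to 268.8 CPM in parental ESCs, 270.1 to 277.4 in the WT line and 247.3 to 268.4 in the ΔN line. Of the 5 tested, 2 were higher and 1 lower in the WT line than in parental ESCs. In the ΔN line 1 was higher and 1 lower. Markers of early neural or mesodermal cells summed to 205.5 to 215.4 CPM in parental ESCs, 279.4 to 283.5 in the WT line and 177.8 to 202.6 in the ΔN line. The part of these marker differences in the results that follow was not tested.

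Insulin and IGFs bind the receptor tyrosine kinases encoded by *Insr* and *Igf1r*, which recruit the adaptors IRS1 and IRS2. These bring PI3K, a dimer of a catalytic subunit such as the *Pik3ca* product and a regulatory subunit such as the *Pik3r1* product, to the membrane, where its lipid product recruits AKT kinases. AKT restrains FOXO transcription factors and, through the TSC proteins, allows the mTOR kinase to drive protein synthesis and growth. In mouse ESCs PI3K signalling is known as a support of self-renewal and proliferation.

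All 9 genes are placed on mm10 (GRCm38). *Igf1r* spans 67952827 to 68233668 and *Akt2* 27591552 to 27640826, both on chromosome 7. *Insr* spans 3122061 to 3279617 and *Irs2* 10984681 to 11008458, both on chromosome 8. The other genes lie on chromosomes 1 (*Irs1*), 3 (*Pik3ca*), 4 (*Mtor*), 12 (*Akt1*) and 13 (*Pik3r1*). Exons of *Irs1* shared 30.9% of their bases with *Gm9747* on the opposite strand and those of *Irs2* shared 2.56% with *9530052E02Rik*. The study's methods do not say whether the library kit marked strand. The exons of the other genes shared no base with another gene.

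Levels can be compared between genes only per length, so CPM was divided by the length of all exons. On this scale *Mtor* was highest in parental ESCs, at 20.8 ± 1.39 CPM per kb (SD, n = 2). *Akt1* followed at 11.5 ± 1.22 and *Akt2* at 10.3 ± 0.138. *Igf1r* (2.87 ± 0.629) and *Pik3ca* (2.78 ± 0.00919) came next, and their libraries overlapped. *Irs2* had 1.05 ± 0.208 CPM per kb, *Insr* 0.777 ± 0.117 and *Pik3r1* 0.622 ± 0.149, of which *Insr* and *Pik3r1* overlapped. *Irs1*, at 0.0383 ± 0.0382, was far below the rest. In the WT line the order changed at the top, with *Akt1* at 20.9 ± 0.595 above *Mtor* at 17.0 ± 1.60, and the libraries of these genes did not overlap. In that line *Igf1r*, at 1.55 ± 0.0145, stood below both *Pik3ca* (2.04 ± 0.00208) and *Irs2* (1.88 ± 0.164). The ΔN line kept the parental order of the first 6 genes, with *Mtor* at 17.3 ± 0.219 and *Akt1* at 13.7 ± 0.549 CPM per kb, and *Pik3r1* and *Insr* overlapped at 0.570 ± 0.0456 and 0.570 ± 0.0511.

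**Figure D1:**
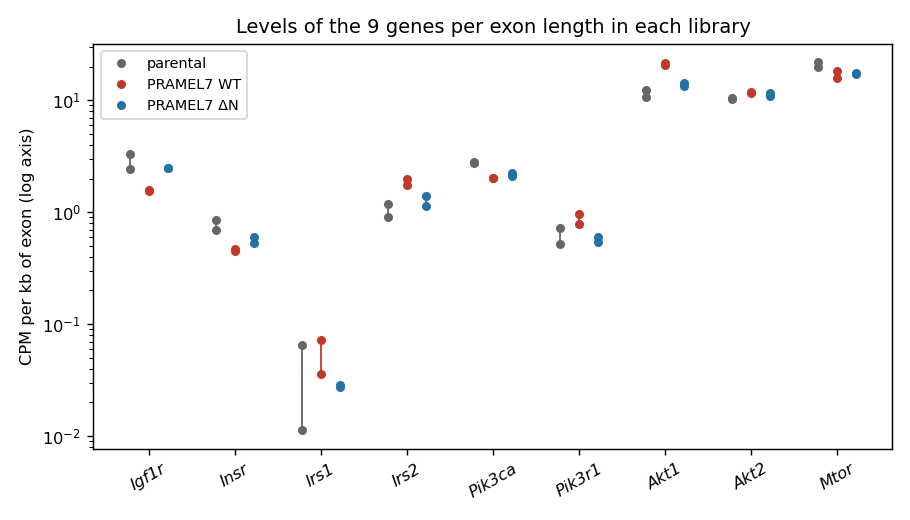
Level of each of the 9 genes in CPM per kb of exon, on a log axis, with a point for each library and a line joining the 2 libraries of a line of cells (grey parental, red WT, blue ΔN). Mtor, Akt1 and Akt2 lie between 10.3 and 20.9 on average and Irs1 lies below 0.1.

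The bases in front of the annotated starts are given for *Igf1r*, *Irs2* and *Akt1*, the genes with the largest differences in either direction. Each run holds the 250 bases before a RefSeq start, on GRCm38.p6, read 5′ to 3′ on the strand of the gene. Capitals mark the letters GGGCGG, the GC box bound by Sp1 and KLF factors, CACGTG, an E-box, and TGTTTAC, a core bound by FOXO factors. All were searched on both strands.

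Igf1r, chr7:67952007-67952256, plus strand: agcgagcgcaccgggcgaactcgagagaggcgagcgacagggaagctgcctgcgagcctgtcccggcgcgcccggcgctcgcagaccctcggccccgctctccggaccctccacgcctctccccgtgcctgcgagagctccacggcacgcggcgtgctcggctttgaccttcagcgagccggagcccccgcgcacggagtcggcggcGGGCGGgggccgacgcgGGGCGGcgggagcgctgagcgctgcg
Irs2, chr8:11008930-11009179, minus strand: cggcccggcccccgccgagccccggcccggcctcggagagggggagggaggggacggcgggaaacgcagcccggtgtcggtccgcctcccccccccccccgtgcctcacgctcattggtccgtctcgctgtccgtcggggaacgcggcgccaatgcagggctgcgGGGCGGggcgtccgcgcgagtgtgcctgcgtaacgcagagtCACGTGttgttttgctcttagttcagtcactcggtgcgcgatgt
Akt1, start at the 5′ end, chr12:112674885-112675134, minus strand: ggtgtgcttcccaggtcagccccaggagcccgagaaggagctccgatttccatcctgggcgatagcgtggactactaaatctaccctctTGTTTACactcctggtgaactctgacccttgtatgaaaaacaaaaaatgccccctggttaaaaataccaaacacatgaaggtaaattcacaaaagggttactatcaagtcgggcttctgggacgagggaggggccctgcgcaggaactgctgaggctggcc
Akt1, start within the gene, chr12:112674277-112674526, minus strand: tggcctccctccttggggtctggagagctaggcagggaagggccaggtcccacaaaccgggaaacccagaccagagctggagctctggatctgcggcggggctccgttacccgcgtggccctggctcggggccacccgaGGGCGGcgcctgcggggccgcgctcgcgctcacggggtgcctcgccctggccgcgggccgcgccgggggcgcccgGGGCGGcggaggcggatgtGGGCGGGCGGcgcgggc

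Of all 32851 such windows, 32.7% hold a GC box, 6.02% the E-box and 3.17% the FOXO core. *Igf1r* had 2 GC boxes and 42 CG dinucleotides, a number that 0.865% of all windows reach, against a median of 6. *Irs2* had 1 GC box, 1 E-box and 34 CG dinucleotides. The window of the *Akt1* start within the gene, which lies in an intron of the longer transcript, had 4 GC boxes, of which the last pair overlaps, and 31 CG dinucleotides, and the start at the gene's 5′ end had a FOXO core, no GC box and 7. The deposited values do not separate transcripts from these starts. A match is a string of letters and no evidence of binding. By symbol, 8 of the 9 genes matched a window, all but *Insr*.

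*Igf1r* encodes the receptor for IGF1 and IGF2. It had 40.7 and 55.6 CPM in the parental libraries, 25.9 and 26.3 in the WT line, and 41.8 and 41.7 in the ΔN line. Both WT libraries lay below all others, whereas the ΔN libraries lay inside the parental range. The log2 fold change on the log2(CPM + 1) scale, used for all fold changes here, was -0.84 ± 0.14 (standard error) in the WT line over parental ESCs (adjusted p = 0.00379 from limma, as are all adjusted p-values). In the ΔN line it was -0.18 ± 0.14 (adjusted p = 0.399, 95% interval -0.50 to 0.13). The difference between the derived lines was itself past the threshold, at -0.66 in the WT line over the ΔN line (adjusted p = 0.0111). That call was lost when any library of the derived lines was left out, with adjusted p between 0.0681 and 0.0905 and the difference between -0.67 and -0.65.

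*Insr* encodes the insulin receptor. It had 9.54 and 11.8 CPM in parental ESCs, 6.48 and 6.22 in the WT line, and 8.33 and 7.34 in the ΔN line. Every library of the derived lines lay below both parental ones, and the WT libraries were lowest. The log2 fold change was -0.66 ± 0.16 in the WT line (adjusted p = 0.0149) and -0.40 ± 0.16 in the ΔN line (adjusted p = 0.104). The first call was lost without either WT library, with adjusted p of 0.0921 and 0.108. The second was gained without parental replicate 1, with adjusted p = 0.0249. The derived lines differed by -0.26 for WT over ΔN, with a 95% interval of -0.61 to 0.09 (adjusted p = 0.259).

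The adaptor genes were unlike in level. *Irs1* had 2 and 11 reads in the parental libraries, 13 and 6 in the WT libraries and 5 in each ΔN library, at most 0.658 CPM, and no difference was detectable at this depth. *Irs2* had 5.68 and 7.54 CPM in parental ESCs, 11.1 and 12.6 in the WT line, and 8.83 and 7.23 in the ΔN line. Both WT libraries were above all others, and the ΔN libraries overlapped the parental ones. *Irs2* was higher in the WT line by 0.77 ± 0.17 on the log2 scale (adjusted p = 0.0125), a ratio of mean CPM of 1.80. In the ΔN line the value was 0.25 ± 0.17 (adjusted p = 0.344), and WT over ΔN gave 0.51 ± 0.17 (adjusted p = 0.0623, 95% interval 0.13 to 0.90). The call in the WT line was lost without WT replicate 1 (adjusted p = 0.0665) or replicate 2 (0.111).

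Of the PI3K genes, the catalytic one was lower in the WT line and the regulatory one did not pass. *Pik3ca*, which encodes the p110α catalytic subunit, had 25.3 and 25.2 CPM in parental ESCs, 18.5 and 18.6 in the WT line, and 19.1 and 20.5 in the ΔN line. All 4 libraries of the derived lines lay below both parental ones. The log2 fold change was -0.42 ± 0.11 in the WT line (adjusted p = 0.0242) and -0.33 ± 0.11 in the ΔN line (adjusted p = 0.0657). The derived lines differed by -0.09, with a 95% interval of -0.34 to 0.16. The WT call was lost without either WT library (adjusted p = 0.149 and 0.144), and with quantile scaling, median-ratio scaling or centring on chromosomes (0.0531 to 0.0647). *Pik3r1*, which encodes the p85α regulatory subunit and its shorter forms, had 7.33 and 5.21 CPM in parental ESCs, 7.90 and 9.80 in the WT line, and 5.42 and 6.07 in the ΔN line. The WT libraries were highest, and the lower of them lay just above the higher parental one. The log2 fold change of 0.45 ± 0.18 did not pass (adjusted p = 0.102) except with quantile scaling, with centring on chromosomes or without parental replicate 1 (0.0125 to 0.0477), nor did that of -0.09 ± 0.18 in the ΔN line (adjusted p = 0.767). The difference of 0.54 between the derived lines did not pass either (adjusted p = 0.0667).

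*Akt1* was higher in the WT line under every setting tried. This gene, for the AKT kinase found in most tissues, had 43.5 and 50.6 CPM in parental ESCs, 84.0 and 87.4 in the WT line, and 57.8 and 54.6 in the ΔN line. The 3 lines did not overlap, and the WT libraries were highest. *Akt1* was higher in the WT line by 0.85 ± 0.10 on the log2 scale (adjusted p = 0.00116), a ratio of mean CPM of 1.82. Leaving out any library kept that call, with fold changes from 0.75 to 0.96. The ΔN line had 0.25 ± 0.10 over parental ESCs (adjusted p = 0.116), which passed without parental replicate 2 (adjusted p = 0.0157). WT over ΔN was 0.60 ± 0.10 (adjusted p = 0.00396), a call that was lost without WT replicate 2 (adjusted p = 0.0642) or ΔN replicate 2 (0.0563).

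*Akt2*, known for its part in insulin-driven glucose uptake, had 72.8 and 74.2 CPM in parental ESCs, 82.7 and 85.2 in the WT line, and 83.0 and 77.3 in the ΔN line. The libraries of both derived lines lay above the parental ones and overlapped each other. No comparison of *Akt2* passed, except WT over parental ESCs with median-ratio scaling (adjusted p = 0.0499), with log2 fold changes of 0.19 ± 0.09 in the WT line (adjusted p = 0.142) and 0.12 ± 0.09 in the ΔN line (0.374). The 95% interval in the WT line, -0.01 to 0.39, lay below that of *Akt1*, 0.62 to 1.09.

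*Mtor* encodes the kinase of both mTOR complexes. It had 200.3 and 220.2 CPM in parental ESCs, 183.1 and 160.3 in the WT line, and 176.9 and 173.8 in the ΔN line. All libraries of the derived lines were below the parental ones, and the derived lines overlapped. The log2 fold change was -0.29 ± 0.09 in the WT line (adjusted p = 0.0486) and -0.26 ± 0.09 in the ΔN line (adjusted p = 0.0858). The WT value was close to the limit and kept its call in 1 of 13 other settings, a pseudocount of 5, and in 1 of 6 fits that left out a library, the one without parental replicate 1.

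**Figure D2:**
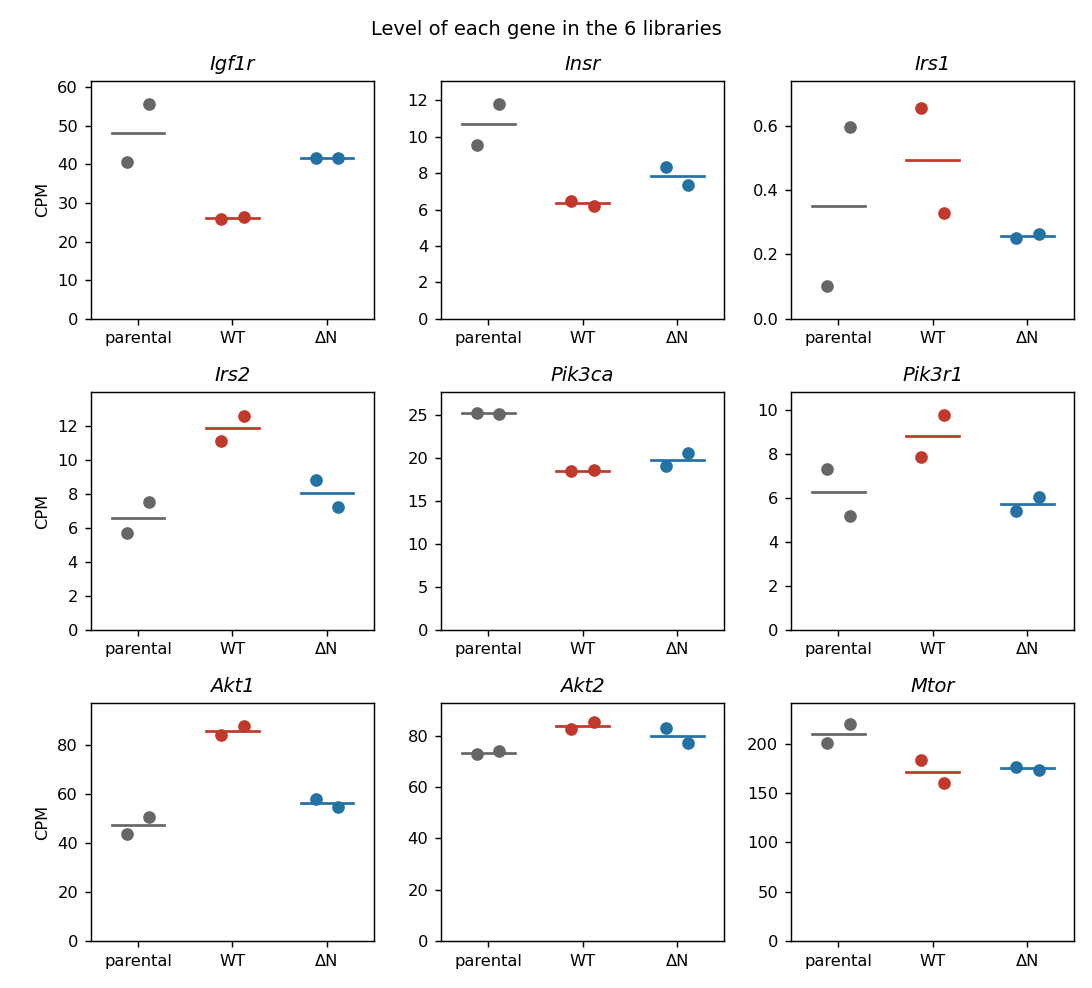
CPM of each of the 9 genes, with a point for each library and a bar at the mean of the line (grey parental, red WT, blue ΔN), each panel with its own axis from 0. Igf1r and Insr are lowest and Irs2 and Akt1 highest in both red points.

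Of the 8 genes tested, 6 were called in the WT line over parental ESCs at an adjusted p-value below 0.05, *Akt1* and *Irs2* as higher and *Igf1r*, *Insr*, *Pik3ca* and *Mtor* as lower. Across all genes tested, 25.0% were called in this comparison, 8.71% as higher and 16.3% as lower. Leaving out either WT library reduced the count to 2, *Akt1* and *Igf1r*. With quantile scaling, median-ratio scaling or centring on chromosomes 3 genes were called as higher and 2 as lower. Requiring an absolute log2 fold change above 0.58 as well left 4 genes, *Akt1*, *Irs2*, *Igf1r* and *Insr*, where 12.5% of all genes passed, 4.07% as higher and 8.41% as lower. In the ΔN line over parental ESCs none of the 8 was called by limma, against 19.9% of all genes, 6.25% as higher and 13.6% as lower, and 4 had an unadjusted p-value below 0.05 (*Insr*, *Pik3ca*, *Akt1* and *Mtor*). By voom on reads rebuilt from the values none was called either. With the log2 limit the share of all genes was 11.3%, 2.87% as higher and 8.41% as lower. Without parental replicate 1 the ΔN count was 3 (*Igf1r*, *Insr* and *Mtor*), and without parental replicate 2 it was 1 (*Akt1*). Between the derived lines 2 of 8 were called, *Igf1r* as lower and *Akt1* as higher in the WT line, against 20.4% of all genes, 10.9% as higher and 9.44% as lower. Both also passed the log2 limit, as did 11.3% of all genes, 6.63% as higher and 4.72% as lower. That count was 0 without WT replicate 2 or ΔN replicate 2, 1 (*Akt1*) without the other library of either line, and 4 without either parental library, with *Irs2* and *Pik3r1* added.

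The median log2 fold change of the 8 genes was -0.05 in the WT line, beside -0.08 over all genes, and -0.14 in the ΔN line, beside -0.06. Bulk RNA of this kind does not tell a smaller share of expressing cells from less RNA per cell. Genes within 2 Mb of *Igf1r* had a median of -0.20 in the WT line (17 genes) and those near *Akt1* one of 0.19 (43 genes), both in the direction of the gene itself. For *Insr* and *Irs2* the medians of such neighbours were -0.05 (24 genes) and 0.17 (14 genes). All of these were smaller than the change of the gene they surround. Medians near *Pik3ca* (-0.25) and *Akt2* (0.14) also had the direction of their gene in the WT line. Those near *Pik3r1* (-0.23) and *Mtor* (0.01) had the opposite direction. For WT over ΔN the medians were 0.04 near *Igf1r* and 0.12 near *Akt1*, beside -0.66 and 0.60 for the genes themselves.

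**Figure D3:**
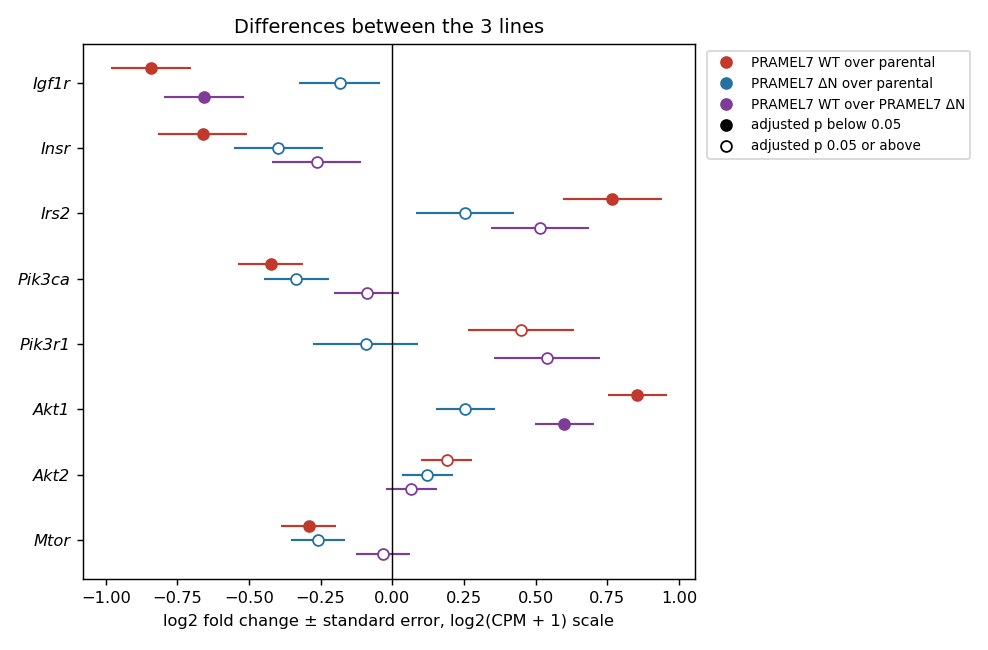
Log2 fold change of the 8 tested genes with its standard error in 3 comparisons (red WT over parental, blue ΔN over parental, purple WT over ΔN), filled where the adjusted p-value is below 0.05. In red, 6 points are filled, in blue none, and in purple those of Igf1r at -0.66 and Akt1 at 0.60.

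Ratios of a pair of genes within each library are not affected by the scaling between libraries. *Akt1* over *Akt2*, per kb of exon, was 1.04 and 1.19 in parental ESCs, 1.77 and 1.79 in the WT line, and 1.21 and 1.23 in the ΔN line. *Akt1* over *Igf1r* was 4.39 and 3.73 in parental ESCs, 13.3 and 13.6 in the WT line, and 5.67 and 5.37 in the ΔN line. *Irs2* over *Igf1r* was 0.371 and 0.3601 in parental ESCs, 1.14 and 1.27 in the WT line, and 0.562 and 0.460 in the ΔN line. In each of these 3 ratios the WT libraries stood apart from the other 4. *Pik3ca* over *Pik3r1* was 3.83 and 5.36 in parental ESCs, 2.60 and 2.10 in the WT line, and 3.90 and 3.75 in the ΔN line, again with the WT libraries apart. *Igf1r* over *Insr* was 3.49 and 3.85, 3.28 and 3.46, and 4.10 and 4.65 in the same order, lowest in the WT line and highest in the ΔN line. Ratios are given as a description, without a test.

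**Figure D4:**
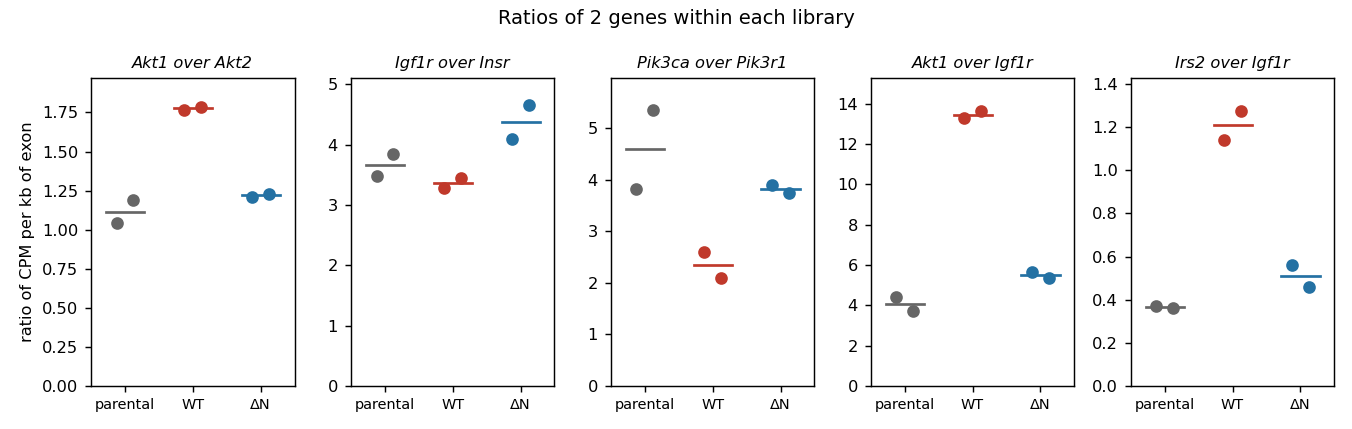
Ratio of CPM per kb of exon of 2 genes in each library (points) with the mean of the line (bars), each panel with its own axis from 0. In the panels of Akt1 over Akt2, Akt1 over Igf1r and Irs2 over Igf1r the red WT points are above all others, and in that of Pik3ca over Pik3r1 they are below.

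The other genes of the pathway were taken from lists by role, 122 genes of which 104 were tested. In the WT line 33 of 104 were called, 12 higher and 21 lower, beside 25.0% of all genes, 8.71% higher and 16.3% lower. The ΔN line had 26, of which 5 were higher and 21 lower, beside 19.9% of all genes, 6.25% higher and 13.6% lower. The same shares of all genes stand beside the counts by role given below. WT over ΔN gave 13 in each direction, beside 10.9% of all genes as higher and 9.44% as lower. The balance of directions depended on scaling. Median-ratio scaling gave 21 higher and 16 lower in the WT line and 13 and 15 in the ΔN line, and centring each library on its chromosomes gave 16 and 13, and 10 and 9. Of the 21 genes lower in the WT line and the 21 lower in the ΔN line, 12 were the same, 57.1% of each list. Both comparisons share the parental libraries, and the same overlap over all genes was not counted. *Acly*, *Grb2*, *Igfbp3*, *Igfbp4*, *Rps6kb1* and *Rptor*, among these 12, lie on chromosome 11. The counts of genes called leaned on single libraries. Without WT replicate 1 or 2 the WT count was 7 or 5, without ΔN replicate 1 or 2 the ΔN count was 9 or 11, and without parental replicate 1 the ΔN count was 51. Without any WT or ΔN library in turn, WT over ΔN gave 7, 4, 11 and 6, and without either parental library it gave 46.

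None of the 9 core genes lies on chromosome 11, but 11 of the 104 other genes do. Over all 1102 tested genes of that chromosome the median log2 fold change was -0.36 in the WT line and -0.33 in the ΔN line, against -0.05 and -0.04 elsewhere. Of all genes there, 505 were lower in the WT line and 433 in the ΔN line. Of the 11 pathway genes there, 7 were lower in the WT line and 8 in the ΔN line. The part of this chromosome-wide difference in those calls was not tested. On other chromosomes 14 of 93 were lower and 12 higher in the WT line, and 13 were lower and 5 higher in the ΔN line. Of all 11812 genes tested there, 1604 were lower and 1088 higher in the WT line. In the ΔN line 1326 of them were lower and 780 higher. Pathway genes on chromosome 11 are marked as such where they are named.

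Among ligands and binding proteins, the genes for the ligands themselves were nearly silent. *Ins1*, *Ins2* and *Igfbp1* (the last on chromosome 11) had no read in any library, which allows up to 3 reads or 0.151 to 0.165 CPM per library, for counting error only. *Igf1* reached at most 0.506 CPM and *Igf2* at most 1.34. Of 7 genes tested, 3 were lower in the WT line, and the same 3 were lower in the ΔN line. *Igf2r*, whose product clears IGF2 from the cell surface, had 138.8 and 185.4 CPM in parental ESCs, 97.9 and 111.1 in the WT line, and 95.9 and 93.0 in the ΔN line. Its log2 fold changes were -0.62 and -0.76 (adjusted p = 0.0103 and 0.00429). *Igfbp3* had -0.77 and -0.79 and *Igfbp4* -1.06 and -0.89 in the WT and ΔN lines, both IGF-binding proteins encoded on chromosome 11. *Igfals*, for a partner that holds IGFs in a serum complex, was higher in the WT line by 0.74 (adjusted p = 0.0278). *Igfbp6*, chosen after its values were seen, was the other gene called higher, at 0.68 and from at most 1.87 CPM. Without either WT library the calls of *Igf2r*, *Igfals* and *Igfbp6* in the WT line were lost. Those of *Igfals* and *Igfbp6* were lost without either ΔN library too, and that of *Igfbp6* also without parental replicate 1. *Igfbp3* lost its calls without WT replicate 2 or ΔN replicate 1, and *Igfbp4* without WT replicate 1 or ΔN replicate 2.

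*Grb10*, on chromosome 11, had by far the largest difference of the pathway. This imprinted gene encodes an adaptor that binds the insulin and IGF1 receptors and restrains their signalling. It had 678.7 and 532.0 CPM in parental ESCs, 29.7 and 28.7 in the WT line, and 620.5 and 627.4 in the ΔN line. Both WT libraries were far below the other 4, which overlapped. The log2 fold change was -4.32 ± 0.11 in the WT line (adjusted p = 5.28e-08) and 0.05 ± 0.11 in the ΔN line (adjusted p = 0.777), and WT over ΔN gave -4.37 (adjusted p = 9.38e-08). Both calls held in 6 of 6 fits without a library and in 13 of 13 other settings. Of 10 receptor relatives and adaptors tested, 3 were lower in the WT line (*Grb10*, *Dok1* and *Grb2*, the last also on chromosome 11), and 5 were lower and 1 higher in the ΔN line. *Dok1*, an adaptor downstream of tyrosine kinases, had -0.79 in the WT line (adjusted p = 0.0128) and -0.66 in the ΔN line (0.0291), from at most 3.20 CPM. *Grb14*, an adaptor of the same family as *Grb10*, had -0.70 in the ΔN line (adjusted p = 0.0459), from at most 2.71 CPM. *Dok1* lost its WT call without either WT library and its ΔN call without any library of the derived lines, *Grb2* lost both calls without any of these, and the call of *Grb14* held only without parental replicate 1. *Shc1*, which links receptors to the RAS pathway, rose in the ΔN line from 107.9 and 114.1 CPM to 190.2 and 175.4, a log2 fold change of 0.71 (adjusted p = 0.000846), and had 133.3 and 124.2 CPM in the WT line. The ΔN call held without each library in turn.

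Of 7 other PI3K subunits and activators tested, 2 were called in the WT line, both as higher. They were chosen after their values were seen. *Pik3r2*, for the p85β regulatory subunit, had 46.5 and 56.3 CPM in parental ESCs and 64.2 and 69.3 in the WT line, a log2 fold change of 0.38 (adjusted p = 0.0383). *Eras*, a RAS-like activator of PI3K found in mouse ESCs, had 37.7 and 34.6 CPM in parental ESCs and 48.0 and 54.1 in the WT line, or 0.49 (adjusted p = 0.0137). *Eras* lost the call without either WT library, and *Pik3r2* kept it only without parental replicate 2. All 5 AKT-related kinases were tested, and 4 were lower in the WT line. *Sgk3*, a kinase of the related SGK family, fell from 11.92 and 11.98 CPM in parental ESCs to 5.87 and 5.89 in the WT line, by 0.91 on the log2 scale (adjusted p = 0.00577). In the ΔN line it had -0.53 (adjusted p = 0.054). Without either WT library the call of *Sgk3* in the WT line was lost.

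Of 13 mTOR complex partners, 2 were lower in each derived line. *Rptor*, the defining subunit of mTOR complex 1 and a gene on chromosome 11, was lower in both, and *Rictor*, the defining subunit of complex 2, in the WT line. *Rictor* lost the call without either WT library, and *Rptor* without any library of the derived lines in the WT line and without ΔN replicate 2 in the ΔN line. *Mapkap1*, another subunit of complex 2, had 48.0 and 48.1 CPM in parental ESCs, 37.9 and 43.2 in the WT line, and 31.3 and 31.0 in the ΔN line, with a log2 fold change of -0.61 in the last (adjusted p = 0.00405). Among 17 inhibitors tested, 4 were higher and 1 lower in the WT line, and 2 were lower in the ΔN line. *Akt1s1*, for the mTOR inhibitor PRAS40, was higher in the WT line by 0.78 (adjusted p = 0.0093). *Sesn3*, of the sestrins that restrain mTOR complex 1, had 20.3 and 26.0 CPM in parental ESCs, 16.8 and 15.0 in the WT line, and 11.3 and 10.6 in the ΔN line. Its log2 fold changes were -0.51 (adjusted p = 0.0327) and -1.004 (adjusted p = 0.00196). The second held without each library in turn, and the first only without parental replicate 1. The call of *Akt1s1* was lost without either WT library.

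Of 19 substrates and effectors tested, 3 were higher and 2 lower in the WT line, and 3 were higher and 1 lower in the ΔN line. *Tfeb*, for a lysosomal transcription factor held in the cytoplasm by mTOR complex 1, had 31.7 and 45.1 CPM in parental ESCs, 66.0 and 76.0 in the WT line, and 39.4 and 36.5 in the ΔN line. Its log2 fold change was 0.89 in the WT line (adjusted p = 0.00469) and 0.88 for WT over ΔN (adjusted p = 0.00438). *Bad*, a pro-apoptotic substrate of AKT, rose from 7.84 and 8.95 CPM to 16.0 and 15.6 in the WT line, by 0.84 (adjusted p = 0.00319), and had 9.39 and 9.56 in the ΔN line. Exons of *Bad* share 20.5% of their bases with *Gpr137* on the opposite strand. *Cdkn1b*, the cell-cycle inhibitor p27, had 31.8 and 45.0 CPM in parental ESCs, 30.1 and 33.5 in the WT line, and 62.8 and 60.3 in the ΔN line, where it was higher by 0.69 (adjusted p = 0.0121). WT over ΔN gave -0.93 (adjusted p = 0.00284). *Rps6kb1*, the S6 kinase gene on chromosome 11, was lower in both derived lines, with log2 fold changes of -0.69 and -0.64 (adjusted p = 0.00317 and 0.0041). The calls of *Bad* and *Rps6kb1* in the WT line and that of *Cdkn1b* for WT over ΔN held without each library in turn. *Tfeb* lost its WT call without WT replicate 2 and that for WT over ΔN without WT replicate 2 or ΔN replicate 2. In the ΔN line *Cdkn1b* lost its call without either ΔN library and *Rps6kb1* without ΔN replicate 1.

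The next list holds targets of FOXO, the factors that AKT restrains. Of 12 tested, 1 was higher and 1 lower in each derived line, and the list median was -0.21 in the WT line, beside -0.08 over all genes, and 0.17 in the ΔN line, beside -0.06. *Gadd45a*, a growth-arrest gene, had 18.3 and 19.9 CPM in parental ESCs, 23.5 and 23.7 in the WT line, and 34.8 and 36.1 in the ΔN line, where it was higher by 0.86 (adjusted p = 0.000933), a call that held without each library in turn. Its exons share 19.1% of their bases with *E230016M11Rik* on the opposite strand. *Cited2*, a transcriptional co-regulator, was higher in the WT line, at 33.1 and 38.9 CPM against 23.3 and 17.0 in parental ESCs, a log2 fold change of 0.82 (adjusted p = 0.00685) that was lost without WT replicate 2. Of 14 targets of SREBP, a lipid synthesis factor downstream of mTOR complex 1, 5 were lower in the WT line and 6 in the ΔN line. Of all genes, 16.3% and 13.6% were lower in these lines. *Insig1*, which retains SREBP in the endoplasmic reticulum, had -0.53 and -0.64 (adjusted p = 0.0142 and 0.00651). *Srebf1*, on chromosome 11, had -0.16 in the WT line (adjusted p = 0.462) and -0.62 in the ΔN line (adjusted p = 0.0176). *Insig1* lost its calls without either library of the line concerned, and *Srebf1* did so in the ΔN line.

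**Figure D5:**
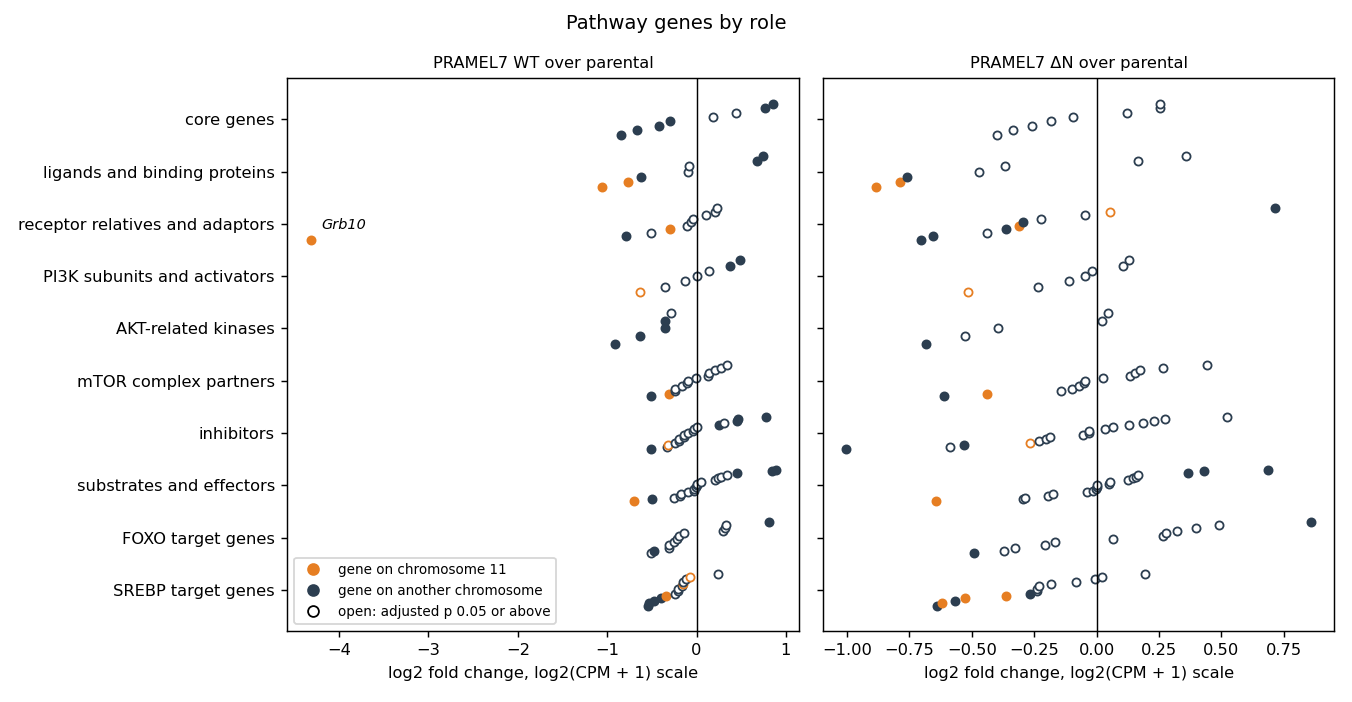
Log2 fold change of each tested gene over parental ESCs in the WT line (left) and the ΔN line (right), grouped by role, filled where the adjusted p-value is below 0.05 and orange for genes on chromosome 11. The horizontal scales differ. On the left Grb10 stands alone at -4.32, and on the right Sesn3 is lowest at -1.004.

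For each gene called in any comparison, the pair of genes most like it over the 6 libraries was taken among genes with at least 10 CPM on average, by Pearson's r of log2(CPM + 1). The 6 libraries fall into 3 lines, so r mostly follows the differences between lines, and it is given as a description. *Igf1r* was most like *Herc1* (r = 0.9977) and *Pspc1* (0.9964), and 145 of 8559 genes had r above 0.95. *Insr* was most like *Ylpm1* (0.9993) and *P4ha2* (0.9982). *Irs2* was most like *Dlg5* (0.9986) and *Kifc1* (0.9939), and *Pik3ca* most like *Usp11* (0.9977) and *Qsox2* (0.9972). *Akt1* was most like *Dcaf15* (0.9962) and *Rpsa* (0.9947), with 154 genes above 0.95. *Mtor* had the weakest partners, *Rbm33* (0.9869) and *Dhtkd1* (0.9865), with 38 genes above 0.95. None of the 12 genes was itself one of the pathway genes listed.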

How the data were processed

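Polyadenylated RNA of 6 libraries was sequenced as single-end reads of 100 bases per the labels. The methods describe removal of ribosomal reads (SortMeRNA), trimming (Trimmomatic) and mapping to mm10 (STAR) before the authors computed RPKM, whereas the submitters' processing notes name Bowtie2 2.3.4.3 and Subread 1.4.6-p4. The deposited RPKM values were divided by the whole span of each gene, introns included. With that length in GENCODE vM21, 98.0 to 98.4% of values up to 20 reads were whole reads within 0.1, against 40.1 to 41.9% with exon length. RPKM was multiplied by the span and 1 constant, which gives CPM and keeps the authors' scaling. Of 50978 genes, 176 had repeated or date-like names, 2796 had no match and 66 had several, which left 47940. The authors' tables of comparisons hold fold changes and p-values and were not used. ChIP libraries were not analysed here.

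The test was limma 3.58.1 (R 4.3.3), trend included, on log2(CPM + 1) for the 12914 genes that exceeded 1 CPM in 2 or more libraries, with all 6 libraries in 1 fit and Benjamini-Hochberg adjustment over all genes tested. On data simulated for the WT line over parental ESCs (12780 genes), 53.8% of genes changed by 0.58 on the log2 scale, 90.9% of those changed by 1 and 100% of those changed by 2 were recovered, with 9 unchanged genes called. The simulation changed 65, 66 and 69 genes by these sizes and gave every gene and line the same set spread. Recovery in the measured data, where spread differs, can therefore be different. Of the other pathway genes, those called in a derived line with an absolute log2 fold change above 0.58 were named, at most 4 per list, except that 1 gene is not reported here. The genes and lists were chosen with earlier results of these data known. P-values rest only on the spread between dishes of a line, as 1 estimate per gene pooled over the 3 lines. Unequal spread between lines is therefore not modelled. Other steps ran in python 3.11.15 (pandas 2.3.3, numpy 2.4.6), with plots by matplotlib 3.10.9. The alternatives were other pseudocounts, filters and scalings, limma without trend, voom, a replicate block, fits of 2 lines, RPKM without conversion, centring on chromosomes, another call rule and leaving out each library.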

Additional observations from a re-analysis of the deposited data

Results flagged for a closer look

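The WT and ΔN lines differed in 2 of the genes when compared directly, both by limma with all 6 libraries. For *Igf1r* the log2 difference of WT minus ΔN was -0.66 (adjusted p = 0.0111), with both WT libraries at 25.9 and 26.3 CPM and both ΔN libraries at 41.8 and 41.7. For *Akt1* it was 0.60 (adjusted p = 0.00396), with 84.0 and 87.4 CPM against 57.8 and 54.6. Both held in every setting tried other than leaving out a library. *Igf1r* lost the call without any of the 4 libraries of the derived lines, and *Akt1* without WT replicate 2 or ΔN replicate 2. The derived lines also differed in the level of *Pramel7* itself, 48.7 against 414.3 CPM. Its part in these differences was not tested.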

How the results depend on the processing

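In the WT line over parental ESCs the calls of *Igf1r* (12 of 12 settings) and *Akt1* (13 of 13) were kept in all settings with 6 libraries and in 6 of 6 fits without a library. *Insr* and *Irs2* lost theirs without a filter (adjusted p = 0.0588 and 0.0556), and *Mtor* in 12 of 13 settings (adjusted p 0.0503 to 0.151). The count of the 9 genes called was 3 without a filter and 1 with RPKM without conversion, where 3 could be tested, and 2 to 7 when a library was left out. The ΔN count was 0 in every setting with 6 libraries and 0 to 3 without a library. WT over ΔN gave 4 when only the 2 lines compared were fitted, 1 with RPKM without conversion and 0 to 4 without a library. Where a library is left out, the lone library of its line is assumed to vary like the others.

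Counts of other pathway genes in the WT line were 13 with RPKM without conversion, 14 with unadjusted p-values and the log2 limit, and 5 to 49 without a library. In the ΔN line they were 15 without a filter, 17 with only the 2 lines compared, 7 with RPKM without conversion, 15 with the unadjusted rule and 9 to 51 without a library. WT over ΔN gave 16, 46, 11 and 10 in these settings and 4 to 46 without a library.

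Directions turned in 4 cases, and none of the turned values was past the threshold. For ΔN over parental ESCs, *Igf1r* turned to 0.03665 without parental replicate 2. Without parental replicate 1 it had -0.4053, which did not turn and was called. In the same comparison *Pik3r1* had 0.06535 with quantile scaling and ranged from -0.3055 to 0.1185 without a library. For WT over ΔN, *Mtor* ranged from -0.1293 to 0.06205 without a library, the last without WT replicate 2. The causes were not tested.

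No consistent pairing of libraries by the replicate numbers in the labels was seen. Deviations of same-numbered libraries correlated at 0.207, -0.249 and -0.103 between lines. These values cannot show whether same-numbered dishes were handled together. With the replicate number as a block, 5, 0 and 2 of the 9 genes and 30, 22 and 22 other pathway genes were called in the WT line, the ΔN line and WT over ΔN, and *Mtor* lost its call among the 9 genes. With 2 libraries per line, genes at low levels such as *Irs1* and *Pik3r1* are limited by depth. For *Pik3r1* the counting error of a single library, at the mean reads of its line, was 7.74 to 9.47%.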
